A study of Rattus norvegicus with 2 samples.

Results

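The CXC chemokines are small secreted proteins that direct the movement of leukocytes, and 10 of their genes were followed here in cultured heart cells: Cxcl1, Cxcl2, Cxcl3, Cxcl6, Cxcl9, Cxcl10, Cxcl11, Cxcl12, Cxcl13 and Cxcl16. They were taken by gene symbol from the array's annotation, each had a single row with its own symbol, and together they are 10 of 22093 named genes. The LPS group was primary cardiomyocytes of neonatal SD rats, a laboratory strain without a genetic change named in the labels, kept in culture for some days and then given lipopolysaccharide (LPS), a component of the outer membrane of Gram-negative bacteria, at 100 ng/mL for 24 h. The control cells were the same kind of culture 24 h after vehicle. Each group was measured on 1 Affymetrix whole-transcript array, and the sources used here do not say whether its RNA came from a single culture or a pool. With 1 array per group no spread and no test could be had, so every difference describes these 2 arrays.

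Values are intensities on the authors' linear RMA scale, in arbitrary units, and differences are LPS minus vehicle in log2, or LPS over vehicle as fold. The intensity of a probe set depends on its probes as well as on its transcript, so the differences reported are within a gene; sums over marker lists and a search for genes with like values, both given last, do set levels of different probe sets together. Both arrays had a median of 49.3, which served as a floor: 14420 genes reached it on at least 1 array, and their median log2 difference was 0. Of these genes, 45.9% had exactly the same value on both arrays, while none of the 10 chemokines did. Over all rows the share was 67.2%, and the step that gave identical values is not stated in the labels, so an identical pair is reported as such and not as evidence of an equal transcript level. The 75th percentile of all rows, 236, is used below as a second, stricter level, and a fold computed after lifting lower values to 236 is called a raised fold. Markers of heart muscle were present on both arrays, with Tnnt2, a troponin of the thin filament, at 87940 with LPS and 84362 with vehicle. In a culture with several cell types, a change in the number of cells of a type and a change in RNA per cell cannot be told apart.

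CXC chemokines fall into families by receptor. Those that carry a glutamate-leucine-arginine motif before the first cysteines bind CXCR2 and draw neutrophils, and in macrophages and stromal cells their genes are known targets of NF-κB downstream of Toll-like receptor 4 and the interleukin-1 receptor. Cxcl9, Cxcl10 and Cxcl11 lack the motif, bind CXCR3 on activated T cells and natural killer cells, and are known as interferon-induced genes. Cxcl12 and Cxcl13 are mostly known for steady-state positioning of cells, through CXCR4 and CXCR5, and Cxcl16 is made as a membrane protein that binds CXCR6.

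Promoter sequences are shown first because the role groups differed in the letters they hold. The RefSeq table of promoters, build GRCr8, held 9 of the 10 members, and each entry runs from 250 bases before to 50 bases after the annotated start on the gene's own strand. Both strands were searched for an NF-κB-type motif, GGGNNNTTCC, and for an interferon-stimulated response element, GAAANNGAAA. The 5 promoters below are those of the members with the largest differences (Cxcl6, Cxcl2 and Cxcl1), of the member with both motifs (Cxcl10) and of the member with the smallest difference (Cxcl13), and capitals mark the matched letters. They lie at chr14:17596368-17596667 (minus strand), chr14:17467206-17467505 (minus strand), chr14:17479272-17479571 (minus strand), chr14:15988816-15989115 (plus strand) and chr14:13917871-13918170 (minus strand), in that order.
Cxcl6: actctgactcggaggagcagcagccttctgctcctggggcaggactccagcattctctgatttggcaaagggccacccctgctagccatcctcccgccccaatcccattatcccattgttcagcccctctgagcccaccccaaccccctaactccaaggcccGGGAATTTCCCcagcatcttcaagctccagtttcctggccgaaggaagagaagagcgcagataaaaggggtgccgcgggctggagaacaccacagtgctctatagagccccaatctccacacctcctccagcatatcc
Cxcl2: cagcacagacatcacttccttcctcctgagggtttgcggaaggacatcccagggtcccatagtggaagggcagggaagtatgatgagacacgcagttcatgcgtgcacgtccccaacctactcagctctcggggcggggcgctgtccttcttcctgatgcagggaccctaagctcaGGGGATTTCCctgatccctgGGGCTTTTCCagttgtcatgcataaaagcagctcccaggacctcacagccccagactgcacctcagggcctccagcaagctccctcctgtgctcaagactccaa
Cxcl1: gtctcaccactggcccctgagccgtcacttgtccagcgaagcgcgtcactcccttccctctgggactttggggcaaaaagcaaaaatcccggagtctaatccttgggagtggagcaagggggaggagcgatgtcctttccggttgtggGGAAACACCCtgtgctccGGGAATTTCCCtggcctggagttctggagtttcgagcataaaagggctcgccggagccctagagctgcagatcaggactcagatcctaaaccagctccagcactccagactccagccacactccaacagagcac
Cxcl10: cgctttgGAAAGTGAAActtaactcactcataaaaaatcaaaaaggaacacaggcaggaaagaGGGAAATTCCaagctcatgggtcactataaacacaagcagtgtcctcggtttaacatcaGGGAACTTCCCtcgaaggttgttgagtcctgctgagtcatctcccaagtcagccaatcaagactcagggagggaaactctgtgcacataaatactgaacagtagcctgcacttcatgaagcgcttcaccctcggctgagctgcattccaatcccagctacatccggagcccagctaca
Cxcl13: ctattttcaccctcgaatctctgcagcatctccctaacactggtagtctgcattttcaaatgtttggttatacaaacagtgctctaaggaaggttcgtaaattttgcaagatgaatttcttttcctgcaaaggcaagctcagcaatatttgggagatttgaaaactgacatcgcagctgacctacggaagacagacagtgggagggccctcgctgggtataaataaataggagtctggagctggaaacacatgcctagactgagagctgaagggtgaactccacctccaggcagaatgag

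The NF-κB-type letters were present in 3 of 3 neutrophil-attracting members with an entry, in 2 of 3 interferon-induced members and in 0 of 3 homeostatic or other members. Over all 33469 rat promoters of the same length, 5.37% held them. In Cxcl6 and Cxcl1 the same letters, GGGAATTTCC, began 88 and 84 bases before the start, and they read as an overlapping match on the opposite strand as well. Cxcl1 held a further match on the opposite strand, GGAAACACCC, at 102 bases. Cxcl2 had GGGGATTTCC at 74 bases and GGGCTTTTCC at 54 bases before the start. Cxcl11 had a single match, GGGAAATTCC, at 74 bases, and Cxcl10 had the identical letters at 187 bases and GGGAACTTCC at 128 bases. The Cxcl10 match at 128 bases also overlapped a match on the opposite strand. The interferon response letters were found in Cxcl10 alone among the 9, as GAAAGTGAAA at 243 bases before the start, and in 3.92% of all promoters. A looser STAT-type motif, TTCNNNGAA, was present in 8.87% of all promoters. It was found in Cxcl11, from 250 bases before the start, and in Cxcl9, where it began at base 33 after the start. Among genes above the floor with an entry, the NF-κB-type letters were held by 14.9% of 409 genes at least 2-fold higher with LPS, 6.13% of 10557 genes within 2-fold and 4.33% of 300 genes at least 2-fold lower. The share was 21.5% of the 65 genes at least 10-fold higher. Both higher sets include Cxcl1, Cxcl2 and Cxcl6 themselves, and the 2-fold set also includes Cxcl10 and Cxcl11, which hold the letters too. The motifs were chosen with these promoters in view, so the split between roles cannot serve as support for a difference in regulation. It also depends on the spacing searched, since Cxcl9 held the shorter letters GGGATTTCC, which the NF-κB-type motif cannot match. A match describes letters only, and binding was not measured.

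The neutrophil-attracting genes held the 3 largest differences among the CXC chemokines. Cxcl6 (Entrez 60665), a CXCR2 ligand that the RefSeq table also lists under the synonym Cxcl5, had an intensity of 17362 with LPS and 32.5 with vehicle, a log2 difference of 9.06. It ranked 5 by difference among the 14420 genes, or 14 with low values raised. Cxcl2 (Entrez 114105), also known as macrophage inflammatory protein 2, had 6672 with LPS and 25.9 with vehicle, a log2 difference of 8.01, and ranked 8, or 29 with low values raised. Both vehicle values were below the median of all rows, so the size of these folds depends on how low values are treated. Cxcl1 (Entrez 81503), the rat cytokine-induced neutrophil chemoattractant, was measured at 16733 with LPS and 186 with vehicle, 89.8-fold higher, and ranked 16 with and without raising. The vehicle value of Cxcl1 was above the median, and its raised fold was 70.9, close to the 73.5 of Cxcl6, whereas that of Cxcl2 was 28.3. The order of the 3 genes therefore differed: Cxcl2 lay between Cxcl6 and Cxcl1 in the deposited values and below both in the raised ones.

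The fourth gene of this role stood apart in size. Cxcl3 (Entrez 171551), known in rat as CINC-2, had 195 with LPS and 48.9 with vehicle, 3.99-fold higher. Its LPS value was below 236, so with values raised to that level its fold was 1. Unlike the other 3 genes of its role, Cxcl3 had no value above 236 on either array. Cxcl1, Cxcl2 and Cxcl3 are closely related genes, and whether their probes share transcripts was not tested.

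**Figure D1:**
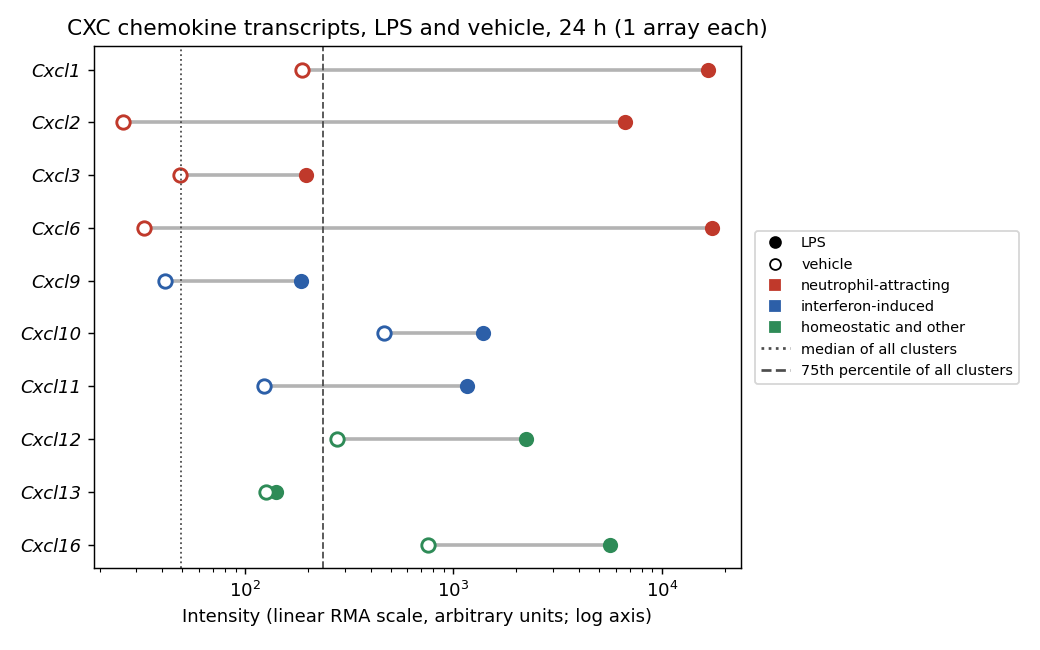
Intensity of each CXC chemokine on the LPS array (filled) and the vehicle array (open), on a log axis in arbitrary units, coloured by role; the dotted and dashed lines are the median (49.3) and the 75th percentile (236) of all rows, and distances are to be read within a gene. Cxcl6, Cxcl2 and Cxcl1 span the widest distances, while the points of Cxcl13, at 141 with LPS and 126 with vehicle, nearly touch.

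The interferon-induced ligands were all higher with LPS, but by single-digit folds. Cxcl11 (Entrez 305236), a CXCR3 ligand, had 1156 with LPS and 123 with vehicle, 9.37-fold higher, and its raised fold was 4.90. Cxcl10 (Entrez 245920), also called IP-10, had 1384 with LPS and 462 with vehicle, 2.99-fold higher. Both of its values were above 236, so its fold was the same after raising. Cxcl9 (Entrez 246759), known as the monokine induced by interferon gamma, had 184 with LPS and 41.4 with vehicle, 4.46-fold higher, and its raised fold was 1. Cxcl10 thus had the smallest deposited fold of the 3 and, unlike Cxcl9, a vehicle value well above the median.

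Of the homeostatic and other members, 2 were severalfold higher and Cxcl13 was nearly equal on both arrays. Cxcl12 (Entrez 24772), stromal cell-derived factor 1, had 2234 with LPS and 276 with vehicle, 8.10-fold higher. Cxcl16 (Entrez 497942), a membrane-bound chemokine that also acts as a scavenger receptor for oxidised lipoprotein, had 5611 with LPS and 751 with vehicle, 7.47-fold higher. All 4 of these values were above 236, so neither fold changed with raising. Cxcl13 (Entrez 498335), the B cell chemoattractant, had 141 with LPS and 126 with vehicle, 1.13-fold higher, and both values lay below 236. The log2 differences of Cxcl12, 3.02, and Cxcl16, 2.90, were close to that of Cxcl11, 3.23, and above those of Cxcl10, 1.58, and Cxcl9, 2.16.

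Side by side, the 3 roles had median log2 differences of 7.25 over 4 neutrophil-attracting genes, 2.16 over 3 interferon-induced genes and 2.90 over 3 homeostatic or other genes, against 0 over all genes above the floor. With low values raised the medians were 5.48, 1.58 and 2.90. The ranges of the neutrophil-attracting role, 3.99-fold to 534-fold, and the interferon-induced role, 2.99-fold to 9.37-fold, overlapped through Cxcl3. Nor did the homeostatic genes lie below the interferon-induced ones as a class: Cxcl12 and Cxcl16 exceeded Cxcl10 and Cxcl9, and Cxcl13 was below both. No test of these contrasts was possible with 1 array per group.

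Of the 10 members, 9 had at least 2-fold more signal with LPS and 0 had at least 2-fold less, Cxcl13 being the exception. Among all genes the same size was reached by 3.69% of genes above the floor in the higher direction and by 2.63% in the lower, and by 2.41% of all 22093 genes in the higher direction when no floor was set. All 10 members reached the floor, but Cxcl2, Cxcl3, Cxcl6 and Cxcl9 did so only through their LPS value. At least 4-fold higher were 7 members and 1.64% of genes, and Cxcl3, at 3.99-fold, lay just outside this size. At least 10-fold higher were 3 members, all of them neutrophil-attracting, and 0.603% of genes, with Cxcl11 just outside. Raising low values left 7 members at least 2-fold higher, that is, without Cxcl3 and Cxcl9, beside 1.98% of all 22093 genes under the same raising.

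**Figure D2:**
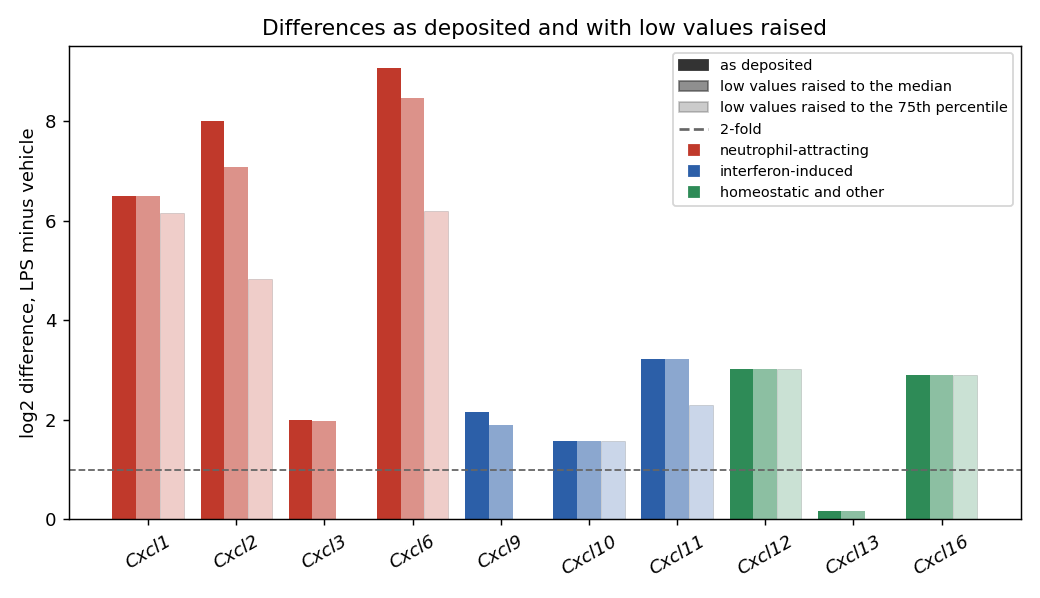
Log2 difference (LPS minus vehicle) of each CXC chemokine as deposited (solid), with values under the median raised to it (medium) and with values under the 75th percentile raised to it (pale); the dashed line is 2-fold. Cxcl6, Cxcl2 and Cxcl1 stay at 4.82 or above in each version, while Cxcl3, Cxcl9 and Cxcl13 have no pale bar because their raised difference was 0.

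**Figure D3:**
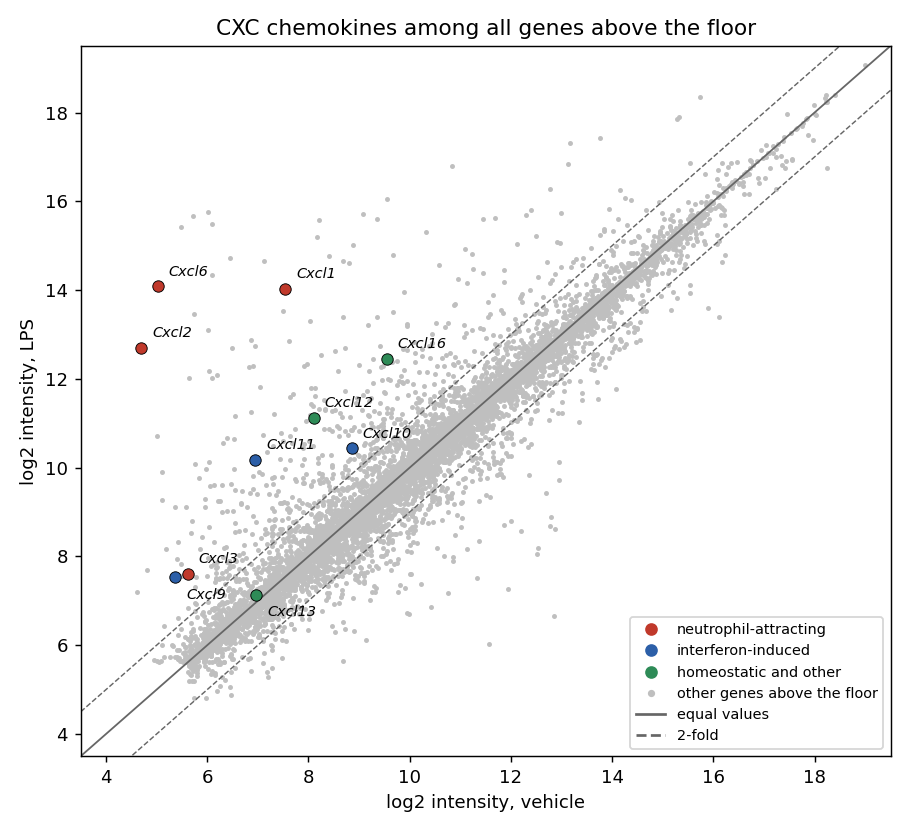
Log2 intensity with LPS against log2 intensity with vehicle for the 14420 genes above the floor (grey) and the 10 CXC chemokines (coloured by role); the solid line marks equal values and the dashed lines 2-fold. Cxcl6, Cxcl2 and Cxcl1 lie far above the lines, and Cxcl13 lies between them.

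Most CXC chemokine genes sit in clusters, and their order along the chromosome was compared with their differences. In the RefSeq table of build GRCr8, 8 of the 10 members lie on chromosome 14, with Cxcl12 on chromosome 4 and Cxcl16 on chromosome 10. Cxcl11, Cxcl10 and Cxcl9 follow each other without a protein-coding gene between them, at 9.37-fold, 2.99-fold and 4.46-fold higher. Of their outer neighbours, Art3 was 1.26-fold higher and Sdad1 had identical values on both arrays. Farther along lie Cxcl2 and Cxcl1, then a predicted gene, and then Cxcl3, Pf4, Ppbp and Cxcl6. Within this stretch the differences were uneven. Pf4, platelet factor 4, is itself a CXC chemokine and had 1834 with LPS and 462 with vehicle, 3.97-fold higher, next to Cxcl3 at 3.99-fold. Ppbp, pro-platelet basic protein, lies between Pf4 and Cxcl6 and had the same value, 36.2, on both arrays, below the floor. The genes that flank the stretch, Mthfd2l at 188 and Rassf6 at 23.9, were also identical with LPS and vehicle. Next to Cxcl16, Med11 was at 125 with LPS and 146 with vehicle, and Zmynd15 at 77.7 with LPS and 68.4 with vehicle.

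**Figure D4:**
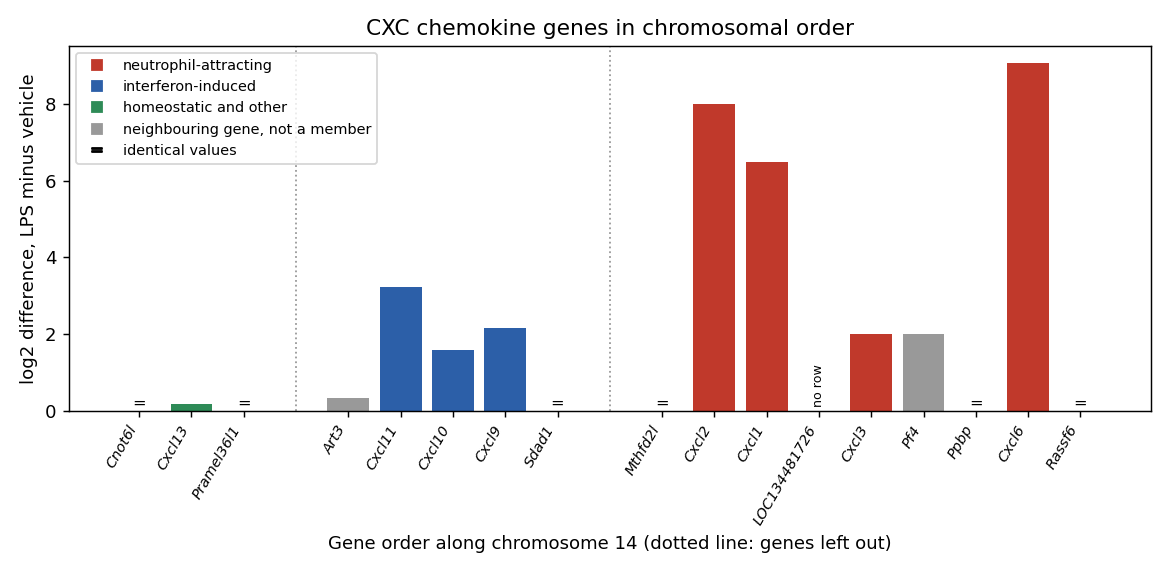
Log2 difference (LPS minus vehicle) of the CXC chemokine genes of chromosome 14 (coloured by role) and of their protein-coding neighbours (grey), in gene order and not to scale; an equals sign marks identical values and the dotted lines mark genes left out. Cxcl2, Cxcl1 and Cxcl6 have tall bars, while Ppbp and the flanking genes Mthfd2l and Rassf6 have none because their values were identical.

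Most receptor genes for these ligands did not reach the floor, which 14420 of all 22093 genes did. Of 8 receptor genes, 5 were below the floor on both arrays with identical values, namely Cxcr1 and Cxcr2, which bind the neutrophil-attracting ligands, Cxcr3, Cxcr5 and Cxcr6. Cxcr4, the signalling receptor of Cxcl12, had 118 with LPS and 180 with vehicle, a log2 difference of -0.61, and both values were under 236. Ackr3, an atypical receptor that takes up Cxcl12 and Cxcl11, had 548 with LPS and 156 with vehicle, 3.51-fold higher, and its raised fold was 2.32. Of the 3 receptors that reached the floor, Ackr3 was the 1 at least 2-fold higher, and 0 were at least 2-fold lower. Among all genes above the floor the shares were 3.69% and 2.63%. Ackr1, a chemokine-binding receptor of endothelium and red cells, was identical at 58.6. Among 4 other CXC ligands with a row, Pf4 was at least 2-fold higher, Cxcl14 had 105 with LPS and 120 with vehicle, Cxcl17 had 74.7 with LPS and 65.4 with vehicle, and Ppbp was identical.

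Genes on the NF-κB route to the neutrophil-attracting ligands were mostly higher with LPS. Of 12 genes, 7 passed 2-fold in the higher direction and 0 in the lower, with a median log2 difference of 1.41. Among all genes above the floor the shares were 3.69% and 2.63%. This list, like that of the interferon route below, was chosen with earlier results of these data known. Whether the genes of either list have a part in the chemokine differences was not tested. The cytokine genes Il1b and Tnf were 984-fold and 24.6-fold higher, with raised folds of 220 and 9.79. Il1a was higher by 671-fold as deposited and by 194-fold after raising. Nfkbiz, which encodes the nuclear IκBζ needed for a subset of NF-κB targets, had 929 with LPS and 310 with vehicle, a log2 difference of 1.58. Nfkb1 was 2.34-fold higher, and the inhibitors Nfkbia and Tnfaip3 were 12.7-fold and 26.2-fold higher. The remaining 5 genes stayed within 2-fold. Nfkb2, at 1.87-fold, and Rel, at 1.81-fold, came nearest to that size, while Rela was 1.19-fold higher. Il1r1, the interleukin-1 receptor, had 21616 with LPS and 23319 with vehicle, and Il17ra was identical on both arrays.

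Of 5 genes with a row whose proteins act on the stability of CXC chemokine mRNA, 1 was at least 2-fold higher and 0 lower. Among all genes above the floor the shares were 3.69% and 2.63%. Zc3h12a, the endonuclease Regnase-1, had 1814 with LPS and 356 with vehicle, 5.10-fold higher. Zfp36, the tristetraprolin gene, had 654 with LPS and 634 with vehicle, and Zfp36l1 and Zfp36l2 were within 2-fold, as was the stabilising factor Elavl1, at 917 with LPS and 934 with vehicle. The median log2 difference of these 5 genes was 0.045.

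On the interferon route, most receptor and transcription factor genes that reached the floor were higher with LPS. The only interferon genes listed, Ifnb1 and Ifng, did not reach it, and other interferon genes were not examined. Ifnb1, at 29.4, and Ifng, at 22.1, were identical on both arrays and below the median of all rows. Of 9 genes that reached the floor, 6 passed 2-fold in the higher direction and 0 in the lower, with a median of 1.39. The shares over all genes above the floor were 3.69% and 2.63%. Irf7, a factor induced by interferon, was 166-fold higher, and Stat2, a partner in the factor that binds interferon response elements, was 5.70-fold higher. Irf1, which acts on the Cxcl9 and Cxcl10 promoters in other cells, had 587 with LPS and 174 with vehicle, 3.38-fold higher. Irf9 was 2.62-fold, Ifngr1 2.66-fold and Ifnar1 2.06-fold higher. The receptor genes Ifnar2, at 1.66-fold, and Ifngr2, at 1.42-fold, stayed within 2-fold, and Irf3 was identical at 564. Among proteases that cut CXC ligands, Mmp9 was 71.0-fold higher, with 33386 with LPS and 470 with vehicle, and Mmp2 was 2.09-fold higher. Adam17 and Adam10, which shed Cxcl16 from the membrane, were 1.93-fold and 1.17-fold higher, and Dpp4, which trims Cxcl10 and Cxcl12, was below the floor.

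**Figure D5:**
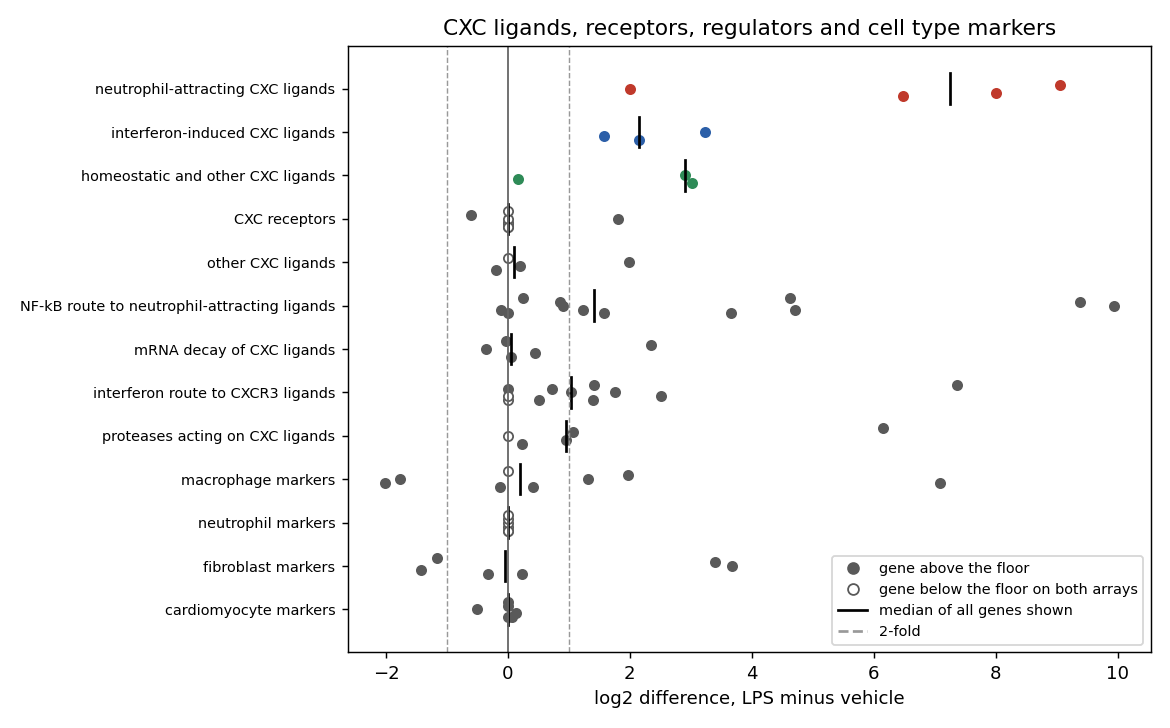
Log2 difference (LPS minus vehicle) of each gene of the CXC ligand roles, their receptors, regulators and 4 sets of cell type markers; open points were below the floor on both arrays, the black bar is the median of the genes shown and the dashed lines are 2-fold. The NF-κB and interferon routes lie mostly to the right of 0, with medians over all genes shown of 1.41 and 1.04, while 5 of 8 receptors are open points at 0.

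Markers of other cell types were read beside these results, and the sums below are given for each list as a whole. Counts past 2-fold stand beside 3.69% of all genes above the floor in the higher direction and 2.63% in the lower. Of 8 macrophage markers, 7 reached the floor, with 3 past 2-fold in the higher direction and 2 in the lower, a median log2 difference of 0.41 and a sum of 35313 with LPS and 24572 with vehicle. Adgre1, the F4/80 antigen, was 137-fold higher, at 8803 with LPS and 64.4 with vehicle, and its raised fold was 37.3. Cd14 was 3.92-fold and Itgam 2.47-fold higher, whereas Csf1r had 512 with LPS and 1736 with vehicle. C1qb had 87.1 with LPS and 354 with vehicle. Cd68, with the highest values of the list, had 16313 with LPS and 17875 with vehicle. The 6 neutrophil markers, S100a8, S100a9, Mpo, Csf3r, Elane and Camp, were all below the floor and identical, as were the 5 T and natural killer cell markers. Of 6 fibroblast markers, 3 were higher and 3 lower, 2 in each direction by at least 2-fold, with a median of -0.046. Dcn was 12.8-fold and Pdgfra 10.5-fold higher. Col3a1 had 17675 with LPS and 47747 with vehicle, and Tcf21 had 420 with LPS and 942 with vehicle. The sum of the list, 539466 with LPS and 368429 with vehicle, includes Dcn at 177435 with LPS and 13840 with vehicle. Smooth muscle markers had a median of -0.64 over 4 genes and a sum of 180439 with LPS and 385422 with vehicle, with Acta2 at 110838 with LPS and 311396 with vehicle as the member at least 2-fold lower. Of 5 endothelial markers, 3 were identical, Kdr was 2.76-fold higher, and Cdh5 had 77.6 with LPS and 88.3 with vehicle. The sum of the list, 2265 with LPS and 1016 with vehicle, was mostly Kdr, at 1975 with LPS and 715 with vehicle. The 3 mesothelial markers stayed within 2-fold, with a sum of 910 with LPS and 686 with vehicle. The 6 cardiomyocyte markers summed to 354480 with LPS and 386554 with vehicle, and none differed 2-fold. Of these 6, 3 (Myh7, Ttn and Ryr2) were identical on both arrays. The part of any of these cell types in the chemokine differences was not tested.

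For the leading member of each role, the genes nearest in their pair of log2 values were listed, a likeness that rests on 2 arrays and on levels that also depend on the probes. Nearest to Cxcl6 were Ccl6, at a distance of 0.94 log2 units, the inducible nitric oxide synthase Nos2 at 1.11 and Adgre1 at 1.39. Nearest to Cxcl11 were Serpina3n at 0.28, Ifi44 at 0.30 and Oas1i at 0.35, which were 7.40-fold, 9.07-fold and 6.81-fold higher. Nearest to Cxcl12 were Samd9 at 0.10, Pilrb2l5 at 0.17 and Oasl2 at 0.21, which were 8.91-fold, 8.46-fold and 8.59-fold higher.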

How the data were processed

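Total RNA of both groups was labelled with biotin by the GeneChip WT PLUS kit, per the labels' protocols. The authors deposited intensities after RMA in Affymetrix Expression Console 1.4.1, per the submitters' processing notes. The values are on a linear scale, from 4.49 to 547546 on the LPS array and from 4.89 to 526444 on the vehicle array. The genome build and the annotation version are not stated in the labels.

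No pseudocount was added before log2, and no normalization was added to RMA (Python 3.11.15, pandas 2.3.3, numpy 2.4.6). Of 68842 rows, 23446 carried 1 gene symbol, and for a gene with several rows the row with the highest mean log2 was used. Symbols were updated through Entrez IDs, and 22077 of the 23446 rows matched the RefSeq gene table of GRCr8, and 505 rows with several symbols were left out. Rows with a value at or above 49.3 on either array were kept for the background, and 2-fold was the fixed size. No test was run, since 1 array per group gives no estimate of spread. The members and lists were chosen with earlier results of these data known, and the motifs with the promoters in view. Named genes are the members, list genes at least 2-fold different or otherwise the highest, and 3 nearest genes for each leading member; genes named as neighbours on the chromosome, and further list genes within 2-fold, were added after their values were seen. Counting was tested on simulated data. Ranks with low values raised were added after the data were seen. Alternatives were other row choices, centring, quantile normalization, raised low values, other sizes and other floors.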

Additional observations from a re-analysis of the deposited data

How the results depend on the processing

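Member and role results were recomputed under 6 alternatives, and counts under 4 more; a value was taken as moved when it changed by over 1.5 times. Each member had 1 row and the median difference was 0, so the choice of row and centring could not change a member and say nothing about its stability. Quantile normalization shifted no member by more than 0.092 log2. Raising values to 236 gave a neutrophil-attracting median of 5.48 and took Cxcl2 to 4.82, Cxcl6 to 6.20, Cxcl11 to 2.29, and Cxcl3 and Cxcl9 to 0. Raising values to the median of all rows gave 7.08 for Cxcl2 and 8.46 for Cxcl6. A size of 1.5-fold gave 872 genes higher and 818 lower, and a size of 4-fold gave 236 higher and 56 lower, by construction of the size. The count of members at least 2-fold higher ran from 7 to 9. With the floor at 236, 7 members were above it and all 7 were at least 2-fold higher, beside 5.25% of genes. Low signal limits Cxcl3, Cxcl9 and Cxcl13, whose values on both arrays were under 236. No paired analysis was possible because each group had 1 array.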
